A study of Mus musculus with 7 samples.

Results

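The proteasome is the barrel-shaped protease that degrades proteins tagged with ubiquitin, and its genes are described here in sorted satellite cells, the stem cells of skeletal muscle. Members were taken by symbol: every gene named Psma, Psmb, Psmc, Psmd, Psme, Psmf or Psmg with a number, except Psmb8 and Psmb9, wherever a probe set named that gene and no other. The pattern took 43 of the 13287 named genes in the deposited values, each represented by its brightest probe set. Psmc3ip, a meiotic recombination factor that shares only its letters with the family, was set apart, which left 42 proteasome genes. Of these, 40 reached the mean log2 level of 5.12 required for testing. The other 2 were Psma8, the alpha subunit of the testis (means of 3.77 to 3.91 log2 in the 3 groups of arrays), and Psmb11, the catalytic subunit of the thymus (4.30 to 4.58). Neither tissue-restricted gene stood above the level required in any group. Psmb4, Psmb6, Psmc3 and Psme2 had no probe set of their own among the deposited values and were not analysed here. The methods state that invariant probes were removed, so these values cannot tell whether the array held probe sets for them.

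The cells were sorted by FACS on nuclear GFP driven by Pax7 from the limb muscles of Tg:Pax7-nGFP mice, a genotype that all groups shared. There were 2 arrays of cells collected at 2 days after death (D2PM), 3 arrays of cells collected at 4 days after death (D4PM) and 2 arrays of cells from living animals (old). The sample labels give 24 to 26 months for the living animals, whereas the series title calls them young adults and its design text counts the same ages in weeks. They were taken as old. By the study's account the post-mortem mice were young adults, so age and death cannot be told apart in any comparison with old cells. No label ties an array to a mouse or a pool of mice, and p-values therefore measure the spread between these arrays, whose small number limits precision.

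The barrel itself, the 20S core, is a stack of outer alpha rings and inner beta rings, and its catalytic sites lie on beta subunits. The 19S regulatory particle caps it: the base holds a ring of ATPases that unfold substrates, and the lid removes the ubiquitin chain. Other activators can cap the core without ubiquitin, and dedicated chaperones build the rings and the base and then leave. Interferons switch the catalytic beta subunits for immunoproteasome forms. In satellite cells, the proteasome is needed for survival and proliferation.

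The mean of 12 satellite cell markers overlapped between groups, at 9.91 to 10.17 log2 over the 7 arrays, and Pax7 lay between 9.87 and 10.52. Of the 12, 3 were higher post mortem and 2 lower, 41.7% called against 29.0% of all genes. Among them in limma were Calcr (higher, adjusted p = 0.0114) and Vcam1 (a change of -0.73, adjusted p = 0.00201). The mean of 9 myofibre markers was 7.10 to 7.41 in old cells and 8.07 to 8.35 post mortem. Of the 8 tested, 6 were higher post mortem, 75.0% against 14.4% of all genes. The mean of 15 endothelial markers was 5.84 to 6.44 in old cells and 6.76 to 7.31 post mortem. Of the 15, 9 were higher, 60.0% against 14.4% of all genes. The part of these lists in the changes described here was not tested. The mean of 7 macrophage markers overlapped, at 5.23 to 5.80 in old cells and 5.06 to 5.46 post mortem, and the defining members Ptprc, Csf1r and Mrc1 were below the level required for testing. Of the 4 tested, Cd14 fell by 1.03 (adjusted p = 0.00345). Of 6 fibroadipogenic markers none passed in limma for post-mortem against old cells (1 at an unadjusted p under 0.05), and the only lymphocyte marker tested, Cd22, fell by 0.56 (adjusted p = 0.0110). In such bulk samples, more cells of a type and more RNA per cell cannot be told apart.

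Post mortem, changes of the core and the assembly chaperones were mostly above 0 and those of the regulatory particle mostly below, but few passed a test. All 12 core genes tested had a positive change in post-mortem against old cells (the mean of the D2PM and D4PM means minus the old mean). Their median was 0.27 log2, and 1 of the 12 passed. Of the 16 regulatory particle genes, 12 had a negative change, with a median of -0.17 that became -0.08 without old replicate 2, and 3 passed, 1 higher and 2 lower. Over all 9944 genes tested the median was 0.00 and 49.7% were below 0. In limma, with Benjamini-Hochberg adjusted p under 0.05 over all genes tested, 11 of the 40 members passed. That share, 27.5%, lay next to the 29.0% of all genes that passed, so the number of changed members is not a result about the proteasome. The shares in the core (8.33%) and in the regulatory particle (18.8%) were lower than that of all genes. Of the 11, 7 were higher, 17.5% of the members against 14.4% of all genes, and 4 were lower against 14.7%.

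The genes that rose were Psmb1 of the core, the immunoproteasome subunit Psmb10, Psmd14 of the lid, the inhibitor Psmf1 and the chaperones Psmd9, Psmd10 and Psmg4. Those that fell were Psmd2 of the base, Psmd11 of the lid and the activators Psme3 and Psme4. On 11 members, all 5 post-mortem arrays lay above both old arrays (27.5% against 22.8% of all genes), and on 5 all lay below (23.2% of all genes). With each array centred on its median, which moves the median change of all genes to -0.05, the 10 members called split into 5 higher and 5 lower. The count depended on single arrays: it was 6 without old replicate 1, 3 without old replicate 2 and 7 without D2PM replicate 1.

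**Figure D1:**
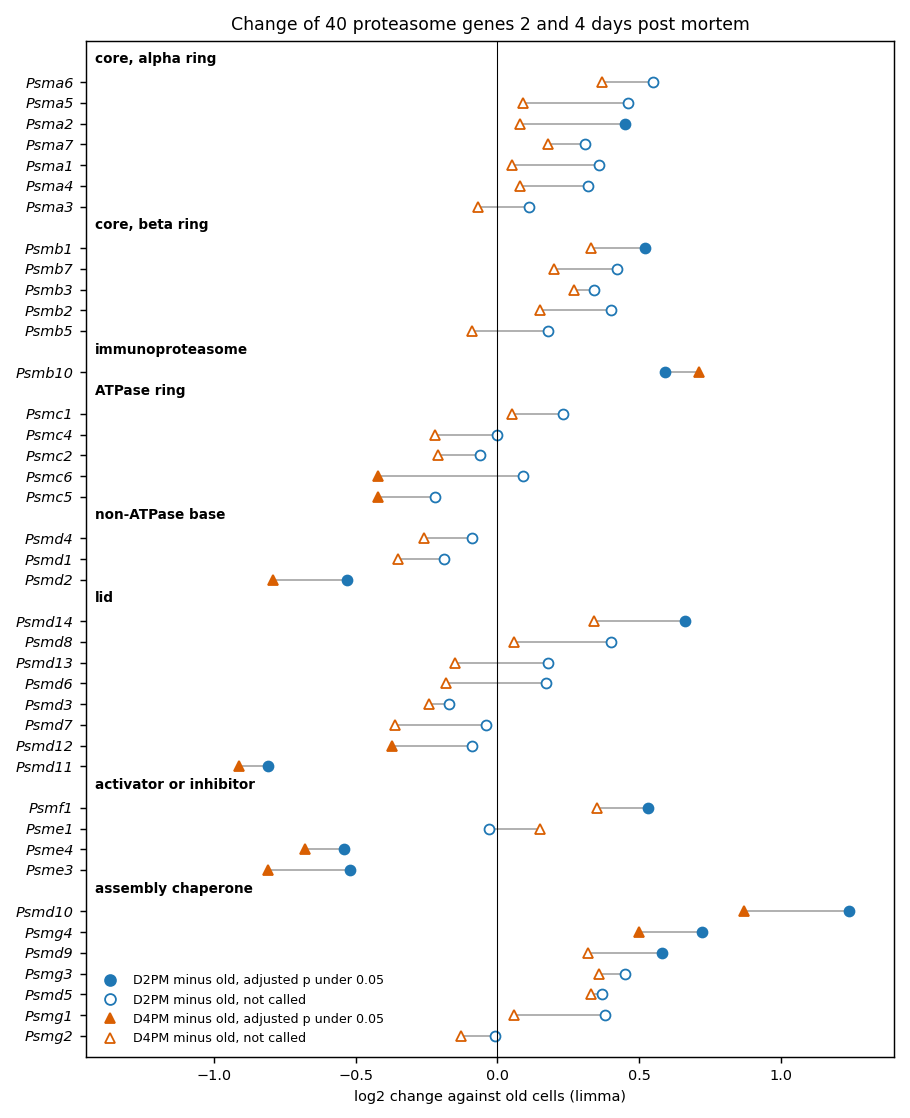
Log2 change of each of the 40 tested proteasome genes in D2PM cells (circles) and D4PM cells (triangles) against old cells, by class, with filled symbols for an adjusted p under 0.05 in limma. Core genes lie mostly right of 0, base and lid genes mostly left of it, and 38 of the 40 triangles lie left of their circles.

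The proximal promoters were read for motifs of pathways known to act on proteasome genes. These are the core of the antioxidant response element (TGACNNNGC), which NFE2L1 and NFE2L2 bind, the core of the interferon-stimulated response element (GAAA, a gap of 2 bases, GAAA) and the CCAAT box. Each was searched on both strands from 250 bases before to 50 bases after the gene start. RefSeq windows of GRCm38.p6 were given for 35 of the 42 genes. The antioxidant core occurred in 5 of them, Psmb5, Psmc6, Psmd9, Psmd12 and Psme4, or 14.3% against 14.0% of 27025 genes. The interferon core also occurred in 5, Psmb3, Psmd4, Psmd9, Psme1 and Psmg4, or 14.3% against 3.99% of genes. The CCAAT box occurred in 13, or 37.1% against 41.1%. A match describes letters in a window and does not show a bound site.
The stretches around the matches are shown 5′ to 3′ on the strand of the gene, with the motif in capitals. Only matches lying wholly before the gene start were eligible. Of members that passed a test against old cells in some comparison, Psmd9, Psmc6 and Psmd12 are shown. Psme4 and Psmg4 also passed, but their matches cross or follow the gene start. Of core members that passed none, Psmb5 and Psmb3 are shown.
Psmd9, antioxidant core, chr5:123228129-123228189, plus strand: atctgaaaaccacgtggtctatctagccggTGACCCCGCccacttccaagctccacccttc
Psmc6, antioxidant core, chr14:45329574-45329635, plus strand: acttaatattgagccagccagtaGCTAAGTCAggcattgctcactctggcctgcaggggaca
Psmd12, antioxidant core, chr11:107479278-107479319, plus strand: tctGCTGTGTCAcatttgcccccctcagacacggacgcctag
Psmb5, antioxidant core, chr14:54618004-54618072, minus strand: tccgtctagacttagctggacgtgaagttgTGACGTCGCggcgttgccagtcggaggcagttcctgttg
Psmd9, interferon core, chr5:123228001-123228070, plus strand: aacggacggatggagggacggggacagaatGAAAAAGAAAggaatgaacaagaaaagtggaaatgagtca
Psmb3, interferon core, chr11:97703241-97703310, plus strand: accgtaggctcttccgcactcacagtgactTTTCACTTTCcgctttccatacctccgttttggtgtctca

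The alpha ring forms the gate of the core, and all 7 of its tested genes had a positive change post mortem (median 0.25 log2), but none passed the test. Psma6 had the largest, at 0.46 ± 0.16 (SE, adjusted p = 0.0554). In old cells its log2 level was 9.98 and 9.88, in D2PM cells 10.66 and 10.29, and in D4PM cells 10.03, 10.61 and 10.25. All 5 post-mortem arrays thus lay above both old arrays, D4PM replicate 1 only narrowly. Psma2 read 8.35 and 8.54 in old cells, 9.0 and 8.78 in D2PM cells, and 8.48, 8.59 and 8.48 in D4PM cells. It was higher in D2PM than in old cells by 0.45 ± 0.14 (adjusted p = 0.0496), the only alpha subunit to pass any test, and its D4PM arrays overlapped those of old cells. The call did not survive median centring, the removal of any array but D4PM replicate 2, or 4 other alternatives (adjusted p up to 0.295).

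Psma5 had 9.79 and 9.94 in old cells, 10.40 and 10.24 in D2PM cells, and 9.73, 10.09 and 10.03 in D4PM cells. Its D2PM arrays were its highest, and the 0.46 difference from old cells had an adjusted p of 0.0616. Psma7 read 9.87 and 9.88, then 10.33 and 10.04, then 9.98, 10.15 and 10.04, higher on every post-mortem array without passing the test (0.25, adjusted p = 0.156). Psma1 read 7.98 and 8.20, 8.54 and 8.36, and 7.99, 8.31 and 8.10 in the same order. For Psma1, as for Psma2 and Psma5, every D4PM array was below both D2PM arrays. Psma4 and Psma3 changed by 0.20 and 0.02 post mortem without passing the test.

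The beta ring carries the catalytic sites, and all 5 of its tested genes were also above 0 (median 0.30), with Psmb1 passing the test. Psmb1, a structural subunit, had 8.70 and 8.55 in old cells, 9.27 and 9.02 in D2PM cells, and 8.77, 9.17 and 8.92 in D4PM cells. No post-mortem array reached down to the old arrays, and the change was 0.43 ± 0.14 (adjusted p = 0.0372), or 1.35-fold. This call was among the least firm, being lost in 8 of 16 alternatives, the removals of each old or D2PM array and of D4PM replicate 3 among them (adjusted p up to 0.259). Psmb7, the trypsin-like catalytic subunit, read 9.58 and 9.35, then 9.86 and 9.91, then 9.52, 9.80 and 9.68. Psmb2, also structural, read 9.59 and 9.57, 10.03 and 9.93, and 9.64, 9.78 and 9.76. Its post-mortem arrays did not overlap with the old ones, and its change of 0.27 ± 0.11 had an adjusted p of 0.0900.

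Psmb3, a structural subunit whose promoter holds the interferon core shown above, had 9.60 and 9.52 in old cells, 9.97 and 9.83 in D2PM cells, and 9.65, 10.01 and 9.82 in D4PM cells. It too was separated from old cells on every array, by 0.30 ± 0.13 (adjusted p = 0.0940). Psmb5, the chymotrypsin-like catalytic subunit and the main target of proteasome inhibitors, stood apart from these. It read 9.55 and 9.72 in old cells, 9.95 and 9.69 in D2PM cells, and 9.41, 9.65 and 9.58 in D4PM cells. Old and post-mortem arrays overlapped, and the change was 0.05 ± 0.13 (adjusted p = 0.809).

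Psmb10, the interferon-inducible catalytic subunit that takes the place of Psmb7, rose post mortem. Old cells had 6.89 and 6.87, D2PM cells 7.47 and 7.47, and D4PM cells 7.74, 7.47 and 7.56. All 5 post-mortem arrays were higher, with no overlap, by 0.65 ± 0.12 (1.57-fold, adjusted p = 0.00209). The call over both days was kept in all 16 alternatives, with changes of 0.60 to 0.68. Against old cells the gene rose by 0.59 in D2PM (adjusted p = 0.0137) and by 0.71 in D4PM (adjusted p = 0.00208), 2 comparisons that share the old arrays. The D2PM call was lost without any 1 old or D2PM array and under Student's t-test. Only under Student's t-test was the D4PM call lost (adjusted p = 0.0992). D4PM and D2PM differed by 0.12 ± 0.13 (adjusted p = 0.771).

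The other immunoproteasome subunits, which the symbol rule left out, were measured in a list of antigen processing genes. In that list, 2 of the 9 genes tested rose and 2 fell post mortem, 44.4% called against 29.0% of all genes (median -0.17). The 2 that rose were the immunoproteasome subunits themselves. Psmb9, the inducible counterpart of Psmb6, read 7.54 and 7.38 in old cells, 8.27 and 8.24 in D2PM cells, and 8.71, 8.52 and 8.34 in D4PM cells, a rise of 0.93 ± 0.13 (adjusted p = 0.000512). Psmb8, the counterpart of Psmb5, read 6.54 and 6.41, then 6.63 and 6.61, then 7.33, 7.20 and 7.11. Its D2PM arrays lay just above the old ones and its D4PM arrays far above both. It rose by 0.44 ± 0.12 post mortem (adjusted p = 0.0142), and D4PM exceeded D2PM by 0.59 without passing the test (adjusted p = 0.149).

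The 2 genes that fell in the list act after the proteasome. Tap1, a subunit of the peptide transporter, fell from 7.05 and 7.31 in old cells to 5.75 and 6.0 in D2PM cells and 6.03, 5.93 and 6.07 in D4PM cells, by 1.24 ± 0.13 on the log2 scale (adjusted p = 8.04e-05). B2m, the light chain of MHC class I, fell by 0.55 (adjusted p = 0.00541). Of the 9 genes tested 5 were not called, and these include others that act after the proteasome. Among them Erap1, which trims peptides, changed by -0.31 (adjusted p = 0.0570).

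In the regulatory particle, the 5 tested ATPases (Psmc1, Psmc2, Psmc4, Psmc5 and Psmc6) differed little from old cells over both days. Post mortem, 4 of the 5 had a negative change (median -0.13), none of which passed the test over both days. Psmc5 read 9.79 and 9.98 in old cells, 9.69 and 9.64 in D2PM cells, and 9.39, 9.64 and 9.38 in D4PM cells, with every post-mortem array below both old arrays. Its change was -0.32 ± 0.12 (adjusted p = 0.0768), and D4PM against old alone passed, at -0.42 (adjusted p = 0.0392). Psmc6 had 9.22 and 9.29 in old cells, 9.50 and 9.19 in D2PM cells, and 8.88, 8.84 and 8.78 in D4PM cells. The D4PM arrays were below all others, by 0.42 from old cells, a fall that passed (adjusted p = 0.0331). The D4PM call of Psmc5 was lost without any array but D4PM replicate 2 and that of Psmc6 without any old or D4PM array. Both were also lost under Student's t-test and with a block for the replicate number.

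The remaining ATPases overlapped between old and post-mortem arrays. Psmc1 read 8.42 and 8.59, 8.85 and 8.61, and 8.49, 8.73 and 8.46 in old, D2PM and D4PM cells. Psmc4 read 8.41 and 8.50, 8.52 and 8.40, and 8.23, 8.38 and 8.11, and Psmc2 read 8.08 and 8.25, 8.07 and 8.13, and 7.81, 8.29 and 7.78. Their changes post mortem were 0.14, -0.11 and -0.13 (adjusted p of 0.440 to 0.524).

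The non-ATPase subunits of the base receive ubiquitinated substrates, and all 3 tested had a negative change (median -0.27). Psmd2, the scaffold Rpn1 on which shuttle factors and Usp14 dock, had 8.84 and 9.17 in old cells, 8.56 and 8.40 in D2PM cells, and 8.31, 8.20 and 8.12 in D4PM cells. Old, D2PM and D4PM arrays fell into 3 ranges without overlap. Psmd2 fell by 0.66 ± 0.13 on the log2 scale post mortem (1.58-fold, adjusted p = 0.00330), a call lost in 1 of 16 alternatives, without old replicate 2 (adjusted p = 0.0728). Psmd1, the scaffold Rpn2, read 9.13 and 9.48, 9.25 and 8.97, and 8.90, 9.05 and 8.92. The ubiquitin receptor Psmd4 read 9.22 and 9.29, 9.23 and 9.10, and 9.01, 9.03 and 8.94. Their changes of -0.27 and -0.17 did not pass, and 1 of the D2PM arrays of each lay within the range of the old arrays.

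In the lid 1 subunit was higher, 1 lower and 6 were not called, a share of 25% near the 29.0% of all genes, and the median was -0.10. Psmd11 (Rpn6), the lid subunit that clamps the regulatory particle to the core and promotes proteasome assembly, showed the most significant change of any member. Its level was 9.75 and 9.81 in old cells, 9.0 and 8.92 in D2PM cells, and 8.87, 8.73 and 8.98 in D4PM cells. Every post-mortem array was well below both old arrays, and Psmd11 fell by 0.86 ± 0.12 on the log2 scale (1.82-fold, adjusted p = 0.000428). The call was kept in all 16 alternatives, with changes of -0.92 to -0.83. It also passed on each day, at -0.81 in D2PM (adjusted p = 0.00311) and -0.91 in D4PM (adjusted p = 0.000530). Under Student's t-test neither day passed (adjusted p of 0.165 and 0.0897).

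Psmd14 (Rpn11), the deubiquitinase that removes the chain as the substrate enters, went the other way. It read 8.25 and 8.52 in old cells, 9.17 and 8.91 in D2PM cells, and 8.41, 9.07 and 8.69 in D4PM cells. D4PM replicate 1 lay below old replicate 2, so the groups overlapped, and the rise of 0.50 ± 0.17 (adjusted p = 0.0487) was lost in 9 of 16 alternatives. Removing any array but D4PM replicate 1 was among these (adjusted p up to 0.311). Psmd12 (Rpn5) had 9.57 and 9.73, 9.66 and 9.45, and 9.29, 9.26 and 9.26. The D4PM arrays lay below all others, 0.37 below old cells (adjusted p = 0.0454), a call lost in 11 of 15 alternatives, the removal of any array among them (adjusted p up to 0.229).

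Psmd8 (Rpn12), a late-joining lid subunit, read 10.21 and 9.98, 10.52 and 10.47, and 10.11, 10.30 and 10.06, so that the D2PM arrays were its highest. Psmd3 (Rpn3) read 7.62 and 7.95, 7.62 and 7.61, and 7.49, 7.53 and 7.62. The changes of these genes were 0.23 and -0.20, neither called. The lid subunits left, Psmd6, Psmd7 and Psmd13, had changes of -0.20 to 0.02.

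Of the activators that can replace the regulatory particle, both nuclear ones tested fell. With the inhibitor Psmf1 the class held 4 tested genes, of which 1 was called higher and 2 lower. That share was 75.0% against 29.0% of all genes. Psme3 (PA28 gamma), the nuclear activator of ubiquitin-independent degradation, had 9.13 and 9.55 in old cells, 8.85 and 8.78 in D2PM cells, and 8.45, 8.65 and 8.48 in D4PM cells. The 3 groups did not overlap, and Psme3 fell by 0.67 ± 0.14 on the log2 scale post mortem (1.59-fold, adjusted p = 0.00421). Psme4 (PA200), the nuclear activator linked to histone degradation, had 8.19 and 8.40, 7.78 and 7.73, and 7.80, 7.47 and 7.58. All of its post-mortem arrays were lower, by 0.61 ± 0.13 (1.52-fold, adjusted p = 0.00478). Without old replicate 2 neither passed, and the call of Psme3 was also lost under Student's t-test.

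Psme1 (PA28 alpha), the interferon-inducible activator, read 9.13 and 9.32 in old cells, 9.26 and 9.13 in D2PM cells, and 9.39, 9.27 and 9.46 in D4PM cells. Its old and post-mortem arrays overlapped, with a change of 0.06 ± 0.12 (adjusted p = 0.727). Psmf1 (PI31), an inhibitor of the core in vitro and an adaptor for its transport, had 6.43 and 6.87, 7.18 and 7.18, and 7.0, 7.05 and 6.94. It rose by 0.44 ± 0.13 (1.36-fold, adjusted p = 0.0294), with D4PM replicate 3 just above old replicate 2. The change was 0.22 without old replicate 1 and 0.66 without old replicate 2. The call was lost without old replicate 1 or either D2PM array, and under Student's t-test.

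**Figure D2:**
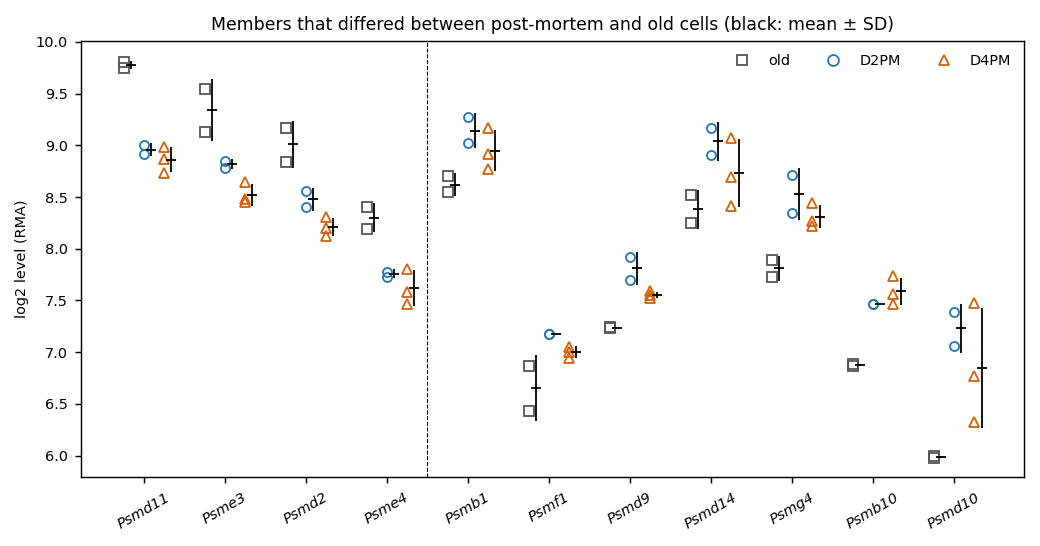
Log2 level on each array of the 11 members called in limma for post-mortem against old cells, with black marks for the mean and SD of each group (2 old, 2 D2PM and 3 D4PM arrays). The 4 genes left of the dashed line were lower post mortem, and of the 7 on the right Psmd14 alone has post-mortem arrays within the range of the old arrays.

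Assembly chaperones had the highest median of any class with more than 1 gene, 0.41, with 6 of 7 above 0. The 3 called were all higher, 42.9% of the class. Of all genes 14.4% were called higher and 29.0% in either direction. Psmd10 (gankyrin), a chaperone of the base that also binds cell cycle regulators, had 5.98 and 6.0 in old cells, 7.39 and 7.06 in D2PM cells, and 6.77, 7.48 and 6.32 in D4PM cells. It had the largest change of any member, a rise of 1.05 ± 0.24 (2.08-fold, adjusted p = 0.00712), and also the widest spread, with an SD of 0.58 over the D4PM arrays. The call was lost without old replicate 1, old replicate 2 or D2PM replicate 1, and under Student's t-test (adjusted p up to 0.119). Psmd9 (p27), another base chaperone, had 7.24 and 7.23 in old cells, 7.92 and 7.70 in D2PM cells, and 7.52, 7.55 and 7.59 in D4PM cells. Its arrays formed 3 separate ranges with the highest in D2PM cells, and it rose by 0.45 ± 0.11 (adjusted p = 0.0129). That call was lost without either old array and under Student's t-test. The promoter of Psmd9 was the only one of the 35 to hold both response element cores.

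Psmg4 (PAC4), which with Psmg3 guides the alpha ring, had 7.89 and 7.73, 8.71 and 8.35, and 8.22, 8.27 and 8.44. All post-mortem arrays were higher, by 0.61 ± 0.13 (1.52-fold, adjusted p = 0.00586), a call lost without old replicate 2 and under Student's t-test. Its partner Psmg3 (PAC3) read 6.51 and 6.97, 7.46 and 6.91, and 6.87, 7.47 and 6.97, which overlapped (0.41 ± 0.20, adjusted p = 0.154). Psmd5, a base chaperone, read 5.18 and 5.54, 5.84 and 5.62, and 5.81, 5.64 and 5.62. It was higher on every post-mortem array without passing the test (0.35 ± 0.14, adjusted p = 0.0738). The other alpha ring pair, Psmg1 and Psmg2, changed by 0.22 and -0.07, neither called.

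The days differed from old cells in a different balance. In D2PM cells 8 members were higher than old cells and 4 lower, or 20% higher against 10.3% of all genes, while 9.11% of all genes were lower. These were the 11 genes of the comparison over both days and Psma2. In D4PM cells 3 members were higher (Psmb10, Psmd10 and Psmg4), against 12.4% of all genes. The 7 that were lower (Psmc5, Psmc6, Psmd2, Psmd11, Psmd12, Psme3 and Psme4) compare with 15.5% of all genes. The median change of the 40 members was 0.27 in D2PM and 0.06 in D4PM. As both comparisons use the same old arrays, the difference between them rests on the direct comparison of the days. With median centring the D2PM calls were 4 higher and 4 lower. Leaving out 1 old or D2PM array left 1 to 4 of the 12 D2PM calls (4 and 2 without old replicates 1 and 2, 1 and 3 without D2PM replicates 1 and 2). The 10 D4PM calls became 5 without either old array and 6 without D4PM replicate 1 or 3.

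Between the days none of the 40 members passed the test in limma, as 0.191% of all genes did. The number of members at an unadjusted p under 0.05 was 8 of 40 with limma, where 772 of the 9944 genes tested reached it. With Student's t-test it was 7. The smallest adjusted p in limma was 0.308, for Psmc6 (-0.51 ± 0.13). The signs nevertheless ran almost wholly one way. The log2 change of D4PM against D2PM was below 0 for 38 of 40 members, against 56.6% of all genes, with a median of -0.22 against -0.03. The exceptions were Psme1 (0.18) and Psmb10 (0.12), both interferon-inducible. All 12 core genes, all 16 regulatory particle genes and all 7 chaperones were below 0, with medians of -0.23, -0.24 and -0.22. Markers of other cell types also differed in sign between the days: all 6 fibroadipogenic markers were below 0 (median -0.24) and all 15 endothelial markers above 0 (median 0.27). Their part in the signs of the members was not tested. For 16 members all 3 D4PM arrays lay below both D2PM arrays, 40% against 15.6% of all genes.

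The members share these 5 arrays, so the 40 signs are not independent observations. D2PM replicate 1 was above D2PM replicate 2 for 35 of the 40, and D4PM replicate 2 was the highest D4PM array for 28. Over all genes these orders held for 49.2% and 31.1%. The median of the 40 members, as a difference from the old mean, was 0.36 and 0.14 for D2PM cells and -0.09, 0.17 and -0.04 for D4PM cells. D4PM replicate 2 thus exceeded D2PM replicate 2, and the groups overlapped at the level of the whole family. Among the members, D4PM replicate 1 was below both D2PM arrays for 35, replicate 2 for 20 and replicate 3 for 32, or 87.5%, 50% and 80.0% against 34.4%, 41.3% and 43.3% of all genes. Without D2PM replicate 1 the number below 0 was 34. The old arrays differed too, with replicate 2 above replicate 1 for 29 of 40 members (72.5% against 51.6% of all genes).

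Per class, the array medians showed the core above old cells and the regulatory particle at or below them. The core had 0.45 and 0.31 in D2PM cells and 0.05, 0.25 and 0.17 in D4PM cells, all above both old arrays. Its alpha ring alone was at -0.08 on D4PM replicate 1, below both old arrays (-0.06 and 0.06), and at 0.04 on replicate 3. Against old cells the median change of the core was 0.38 in D2PM, with 16.7% called against 19.4% of all genes. In D4PM it was 0.12, with 2 of the 12 below 0 and none called, against 27.9% of all genes. The regulatory particle had 0.04 and -0.11, then -0.33, -0.18 and -0.37, against -0.08 and 0.08 on the old arrays. For the particle the D4PM arrays lay below every D2PM and old array, whereas D2PM and old arrays overlapped. Against old cells its median change was -0.05 in D2PM, with 9 of the 16 genes below 0, and 18.8% called against 19.4% of all genes. In D4PM the median was -0.25, with 13 of the 16 below 0, and 31.2% called against 27.9% of all genes.

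**Figure D3:**
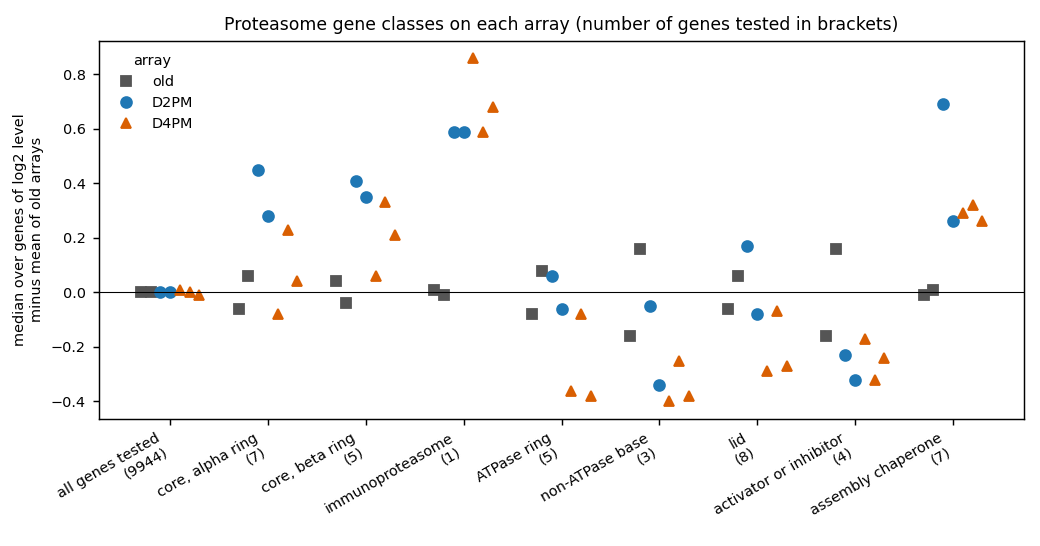
Median over the genes of each proteasome class of the log2 level minus the mean of the old arrays, for each of the 7 arrays, with all 9944 tested genes on the left. The alpha and beta rings lie highest on the D2PM arrays, the ATPase ring, base and lid have their lowest array among those of D4PM cells, and the medians of all genes stay within 0.01 of 0.

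Several members had more than 1 probe set. Probe sets of a gene can read the same transcript sequence, so agreement between them is not an independent check. Psmd2 fell on both of its probe sets, by 0.66 and 0.68 on the log2 scale. Psmb3 had changes of 0.30 and 0.50, Psma5 of 0.27 and 0.28, Psmc1 of 0.14 and 0.07, and the 3 probe sets of Psma3 of 0.01, 0.01 and 0.02. Within each of these 5 genes the probe sets had the same sign, in D4PM against D2PM also. Probe sets of proteasome genes can also take signal from processed copies elsewhere in the genome, so these values carry that uncertainty. Psmc3ip, the gene set apart, changed by 0.29 ± 0.16 (adjusted p = 0.187).

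The genes that work with the proteasome were taken from lists drawn up by function. Of 12 further subunits and associated factors tested, 2 rose and 3 fell post mortem, 41.7% called against 29.0% of all genes (median -0.06). Zfand2a (AIRAP), a stress-induced factor that binds the proteasome, exceeded every member, with 7.41 and 7.48 in old cells, 9.12 and 9.2 in D2PM cells, and 9.01, 9.60 and 8.80 in D4PM cells. The groups were far apart (1.70 ± 0.18, adjusted p = 0.000108). Among ubiquilins, shuttles that bring substrates to the proteasome, Ubqln1 rose by 0.74 (adjusted p = 0.00968) and Ubqln4 fell by 0.72 (adjusted p = 0.00472). Ecpas, which holds core and regulatory particle together, fell by 0.52 (adjusted p = 0.0192). Usp14, the deubiquitinase that docks on Psmd2, fell by 0.40 (adjusted p = 0.0349). The small lid subunit Sem1 (0.16), the core maturation factor Pomp (0.08) and the deubiquitinase Uchl5 (-0.07) did not pass. Adrm1, a ubiquitin receptor, was not analysed here.

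NFE2L1 is the transcription factor that raises proteasome genes when proteasome capacity is low, and p97 (Vcp) pulls it from the endoplasmic reticulum. Of 13 tested genes of this route, 1 rose and 4 fell, 38.5% called against 29.0% of all genes (median -0.20). Nfe2l1 itself read 9.08 and 9.23 in old cells, 8.63 and 8.84 in D2PM cells, and 8.80, 8.73 and 8.57 in D4PM cells. All post-mortem arrays were lower, by 0.44 ± 0.12 (adjusted p = 0.0211). The related Nfe2l2 fell by 0.33 (adjusted p = 0.0457). Of their small MAF partners, Mafg fell by 0.61 (adjusted p = 0.00642) and Mafk rose by 0.36 (adjusted p = 0.0387). Ubxn4, which recruits p97 to the membrane, fell by 0.53 (adjusted p = 0.00676).

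Of 9 genes of ubiquitin conjugation tested, 22.2% were called against 29.0% of all genes: Ube2d1, a conjugating enzyme, rose by 0.58 (adjusted p = 0.00354) and Uba6, an activating enzyme, fell by 0.37 (adjusted p = 0.0460), with a median of -0.14. Of 7 muscle ligases tested, 3 were called, 42.9% against 29.0% of all genes (median -0.12). Fbxo32 (atrogin-1), the ligase induced in muscle atrophy, rose by 0.80 ± 0.19 (adjusted p = 0.00879). It read 6.96 and 7.01 in old cells, 7.40 and 7.94 in D2PM cells, and 7.76, 8.30 and 7.64 in D4PM cells, all post-mortem arrays being higher. Fbxo21 rose by 0.35 (adjusted p = 0.0400). The large ligase Huwe1 fell by 1.01 (adjusted p = 0.000311). Trim63 (MuRF1) was below the level required for testing. Fbxo32 is abundant in myofibres, whose markers were also higher post mortem, and the part of that in its change was not tested.

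**Figure D4:**
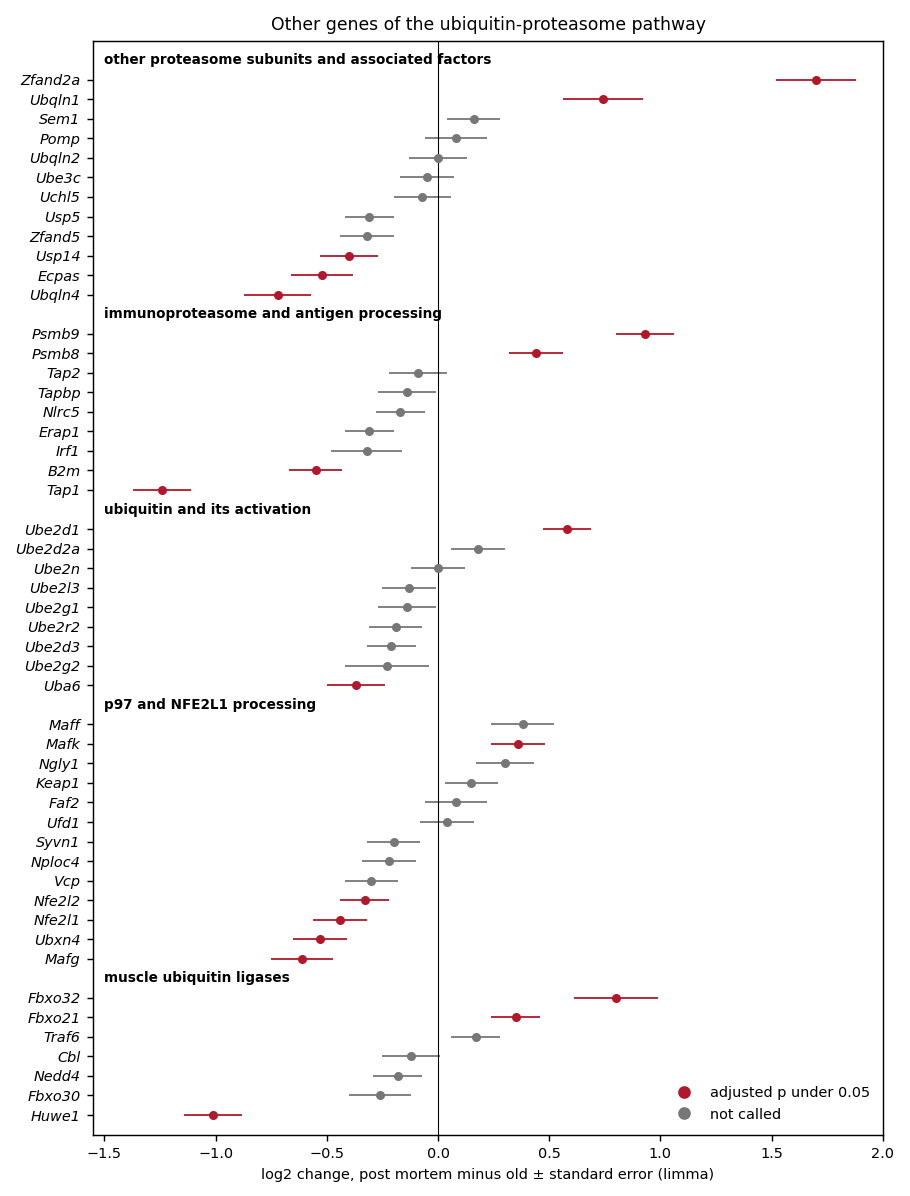
Log2 change in post-mortem against old cells, with the standard error of limma, of the tested genes in 5 lists of the ubiquitin-proteasome pathway, in red where the adjusted p is under 0.05. Zfand2a, at 1.70, lies farthest to the right, and Tap1, at -1.24, farthest to the left.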

How the data were processed

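Amplified RNA (Ovation Pico) of satellite cells was hybridised to 7 arrays of the type GeneChip Mouse Gene 1.0 ST, 2 of old, 2 of D2PM and 3 of D4PM cells. Values were deposited by the authors on the log2 scale after RMA, which corrects the background, equalises arrays and summarises probe sets. The submitters' processing notes name RMA and limma. The methods state that invariant probes were removed (threshold not given in the sources used here), so shares of genes called are shares of genes that vary. The arrays carry no detection call, and array medians lay between 6.11 and 6.19.

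Genes were named from the array annotation (14480 of 18675 probe sets had a single gene), with the brightest probe set for each gene. Genes with a mean at or above the 25th percentile (5.12, 9944 genes) were fitted with limma 3.58.1 in R 4.3.3, with 3 group means, Benjamini-Hochberg adjustment over all genes and an adjusted p under 0.05. The members, classes and lists were chosen with earlier results of these data known. Levels per array are given for up to 5 members of a class, those called coming before the rest by size of the moderated statistic. From each list, up to 5 genes by that size are named, besides Psmb8, Psmb9, Pomp, Nfe2l1, Sem1, Adrm1, Usp14 and Uchl5. Sequences are RefSeq promoter windows of GRCm38.p6.

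On simulated data (20 runs, 200 of 9944 genes changed) 26.6%, 85.1% and 98.3% of genes changed by 0.5, 1 and 2 log2 were called for post-mortem against old cells, with a mean of 6.3 false calls. For D4PM against D2PM these shares were 20.9%, 81% and 98.1%. As alternatives, arrays were quantile-normalised again or centred on their medians, and the fit was run with no filter or a 50th percentile filter, the mean of probe sets, a trended and robust prior, a block for the replicate number, each array left out in turn, only the post-mortem arrays, the post-mortem arrays pooled in 1 group, and Student's t-test.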

Additional observations from a re-analysis of the deposited data

How the results depend on the processing

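For 16 alternatives to each comparison (15 for D2PM or D4PM against old), no change that passed a test reversed. The medians of the core and of the regulatory particle kept their sign. Changes that passed no test were refitted but not compared one by one. In D4PM against D2PM some of them changed sign, with 38 members below 0 in the main fit and 34 without D2PM replicate 1. The core median in post-mortem against old cells ran from 0.21 to 0.31 and that of the regulatory particle from -0.22 to -0.08 (the latter without old replicate 2), and in D4PM against D2PM they ran from -0.31 to -0.15 and from -0.32 to -0.17. The number of members below 0 in D4PM against D2PM was 34 to 39. Counts of members called were less stable, since the groups hold 2 or 3 arrays. With Student's t-test the 11 members of post-mortem against old cells became 4, the 12 of D2PM against old 0 (8 at an unadjusted p under 0.05, against 20 with limma) and the 10 of D4PM against old 0 (10 unadjusted, against 16). Leaving out 1 array gave 3 to 12, 1 to 13 and 5 to 8 members in these comparisons, and 0 throughout for D4PM against D2PM. The lowest came without old replicate 2, without D2PM replicate 1, and without either old array. Arrays with the same replicate number did not deviate together over all genes (correlations of -0.08 to 0.05). In groups of 2 arrays the deviations mirror each other, so this check cannot show whether the numbers pair the arrays. With the replicate block the counts were 11 in post-mortem, 11 in D2PM and 6 in D4PM cells against old, and 0 between the days. In the simulation 26.6% of changes of 0.5 log2 were recovered. Only 200 of the 9944 genes changed there, whereas 29.0% of all genes passed in the data for post-mortem against old cells. The adjustment was therefore stricter in the simulation, and its share does not give the recovery in these data.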
